A study of Mus musculus with 29 samples.

Results

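The FoxO genes Foxo1, Foxo3 and Foxo4 and 7 genes of enzymes that clear reactive oxygen (Sod1, Sod2, Cat, Gpx1, Gpx4, Prdx1 and Txnrd1) were followed through RNA-seq of mouse hematopoietic stem cells (HSCs). The 10 genes were taken by symbol from the 55376 gene symbols counted in each library, and all 10 were among the 33690 genes with enough reads to be tested. HSCs, the rare bone marrow cells that renew all blood lineages, were sorted as lineage- Sca1+ cKit+ cells without CD34 and Flk2 and with CD150. The 19 libraries were labelled YWT (young wild-type, 4 libraries), OWT (old wild-type, 4), YKO (young Gadd45b knockout, 4) and OKO (old Gadd45b knockout, 7). The knockout mice come from a line without functional Gadd45b, which codes for a stress-induced protein implicated in DNA demethylation, and the labels name no agent given to the mice. The labels give age only as young or old. The study asked how loss of Gadd45b changes HSCs of young and old mice. Its 4 comparisons, always given here in the same order, were wild-type aging (OWT vs YWT), knockout in young HSCs (YKO vs YWT), knockout aging (OKO vs YKO) and knockout in old HSCs (OKO vs OWT).

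FoxO proteins are transcription factors that growth factor signaling through PI3K and AKT keeps out of the nucleus, and that enter it to switch on genes of cell cycle arrest, survival and resistance to oxidants when this signal is low. Superoxide dismutases turn superoxide into hydrogen peroxide, and catalase, glutathione peroxidases and peroxiredoxins reduce the peroxide, with glutathione or thioredoxin as electron donors for the latter. HSCs are known to depend on FoxO factors, and Foxo3 in particular, to keep reactive oxygen low and to stay quiescent.

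The libraries held 22197555 to 77970627 counted reads. In 5 libraries (YWT4, YKO2, OKO1, OKO2 and OKO3) between 18530 and 27972 genes were above 1 CPM (reads scaled to a common library size), against 15296 to 16917 in the other 14. The OWT libraries and OKO4 to OKO7 have a title prefix that the others lack, and the study's sample sheet gives the same split as a sequencing batch, so wild-type aging cannot be told apart from the batch. Gadd45b itself, the target of the knockout, was at 7.34 to 17.5 CPM in YWT, 10.1 to 15.5 in OWT, 5.14 to 14.3 in YKO and 2.84 to 6.94 in OKO. YKO thus overlapped YWT in Gadd45b, and YKO and OKO stand here for the libraries that carry these labels. The labels give female for all libraries, while 7 libraries (2 YWT, 1 OWT, 2 YKO and 2 OKO) carried transcripts of Y-linked genes. All 13 HSC identity markers were counted in all 19 libraries, among them Kit at 752 to 1593 CPM. The labels do not say that each library came from a separate animal, so p-values measure the spread between these libraries, and in bulk HSCs fewer cells with a transcript and less transcript per cell cannot be told apart.

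The sequences upstream of the genes were searched on both strands for 3 short motifs in the 250 bases before each RefSeq start on GRCm38.p6, in 14 windows of 9 of the 10 genes. The core of the FoxO binding motif, TGTTTAC, was in 0 of the 14 windows and in 3.17% of all 32851 windows. The antioxidant response element TGACNNNGC, the motif read by NRF2, was in windows of Sod1, Prdx1 and Txnrd1 and in 10.2% of all windows. The CCAAT box, read by NF-Y, was in 8 windows of 6 genes (Foxo1, Sod1, Sod2, Cat, Gpx4 and Txnrd1) and in 33.8% of all windows. Cat had 4 CCAAT matches in 1 window, and 0.84% of all windows held at least that many. No match of one motif overlapped a match of another in these windows. The 4 windows below are those of Cat, which had the largest difference among the 10 genes, with its CCAAT boxes in capitals, and of the 3 genes with an antioxidant response element, with that element in capitals. Letters ATTGG and those starting with GC are matches on the other strand, and each window ends where a GENCODE exon of its gene begins.
Cat, chr2:103485161-103485403, minus strand: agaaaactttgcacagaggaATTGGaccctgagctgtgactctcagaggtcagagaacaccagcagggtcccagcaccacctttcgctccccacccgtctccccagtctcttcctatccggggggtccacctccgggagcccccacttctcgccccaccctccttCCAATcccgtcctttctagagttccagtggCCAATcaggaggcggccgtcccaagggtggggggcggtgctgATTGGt
Prdx1, chr4:116685349-116685543, plus strand: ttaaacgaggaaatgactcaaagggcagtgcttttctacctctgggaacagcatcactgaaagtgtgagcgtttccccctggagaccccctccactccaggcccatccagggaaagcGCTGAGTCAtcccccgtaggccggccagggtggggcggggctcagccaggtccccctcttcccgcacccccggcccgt
Txnrd1, chr10:82858956-82859178, plus strand: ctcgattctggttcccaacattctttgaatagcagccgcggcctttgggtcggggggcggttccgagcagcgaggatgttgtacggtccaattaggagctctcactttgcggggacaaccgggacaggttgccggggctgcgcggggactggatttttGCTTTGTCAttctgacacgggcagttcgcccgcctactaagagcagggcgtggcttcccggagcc
Sod1, chr16:90220512-90220753, plus strand: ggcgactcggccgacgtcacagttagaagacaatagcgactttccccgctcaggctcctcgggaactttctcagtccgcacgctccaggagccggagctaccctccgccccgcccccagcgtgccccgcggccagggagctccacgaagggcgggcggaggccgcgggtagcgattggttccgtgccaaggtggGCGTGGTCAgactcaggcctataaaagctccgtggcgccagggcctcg
The element lay 133 bases before the start in Prdx1, 92 bases in Txnrd1 and 56 bases in Sod1, counted to its first base. The 4 CCAAT boxes of Cat lay 230, 85, 55 and 13 bases before its start. The Txnrd1 window, which serves an internal start of the gene, shares 52 bases with exons of a neighbouring gene. A match describes the letters only.

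Levels of different genes were compared as FPKM (here CPM divided by the gene's summed exon length in kilobases). That length takes in all annotated exons, from 1441 bases in Gpx1 to 10008 in Sod2. It can exceed the length of the transcript present in the cells, so the order of genes depends on this choice. Gpx1, the cytosolic glutathione peroxidase, was highest of the 10 in all 4 groups, with group means from 656 FPKM in OKO to 935 in YKO, and its libraries did not overlap those of the next gene in any group. Gpx4, which reduces lipid peroxides in membranes, and Prdx1, the cytosolic peroxiredoxin, followed with means of 147 to 181 and 132 to 168 FPKM. Their libraries overlapped in all 4 groups, and Prdx1 had the higher mean only in YKO. Cat came next at 47.3 to 76.0 FPKM, then Txnrd1, which codes for cytosolic thioredoxin reductase, at 28.4 to 31.1 FPKM. Sod1, the cytosolic superoxide dismutase, had means of 19.3 to 23.1 FPKM and Sod2, the mitochondrial one, 10.97 to 14.2 FPKM. Before division by length the order was reversed, with group means of 76.7 to 91.6 CPM for Sod1 and 109.8 to 141.7 CPM for Sod2. In FPKM, Sod1 overlapped Sod2 in YKO and OKO but not in YWT or OWT, and it overlapped Txnrd1 in all groups but YKO. The FoxO genes were lowest, with Foxo1 at 6.71 to 8.29 FPKM, Foxo3 at 3.29 to 3.91 and Foxo4 at 0.355 to 0.517. Foxo3 and Foxo4 did not overlap in any group, whereas from Gpx4 down to Foxo3 each pair of neighbours in the order overlapped in OKO.

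Of the summed FPKM of the 3 FoxO genes, Foxo1 held group means of 63.5% to 65.4%, Foxo3 30.7% to 31.8% and Foxo4 3.46% to 5.16%. Foxo1 was therefore the main FoxO transcript in all 19 libraries, with a share from 56.2% in OKO2 to 78.4% in YKO2. The summed level ranged from 6.86 FPKM in OKO2 to 17.2 in OWT1.

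**Figure D1:**
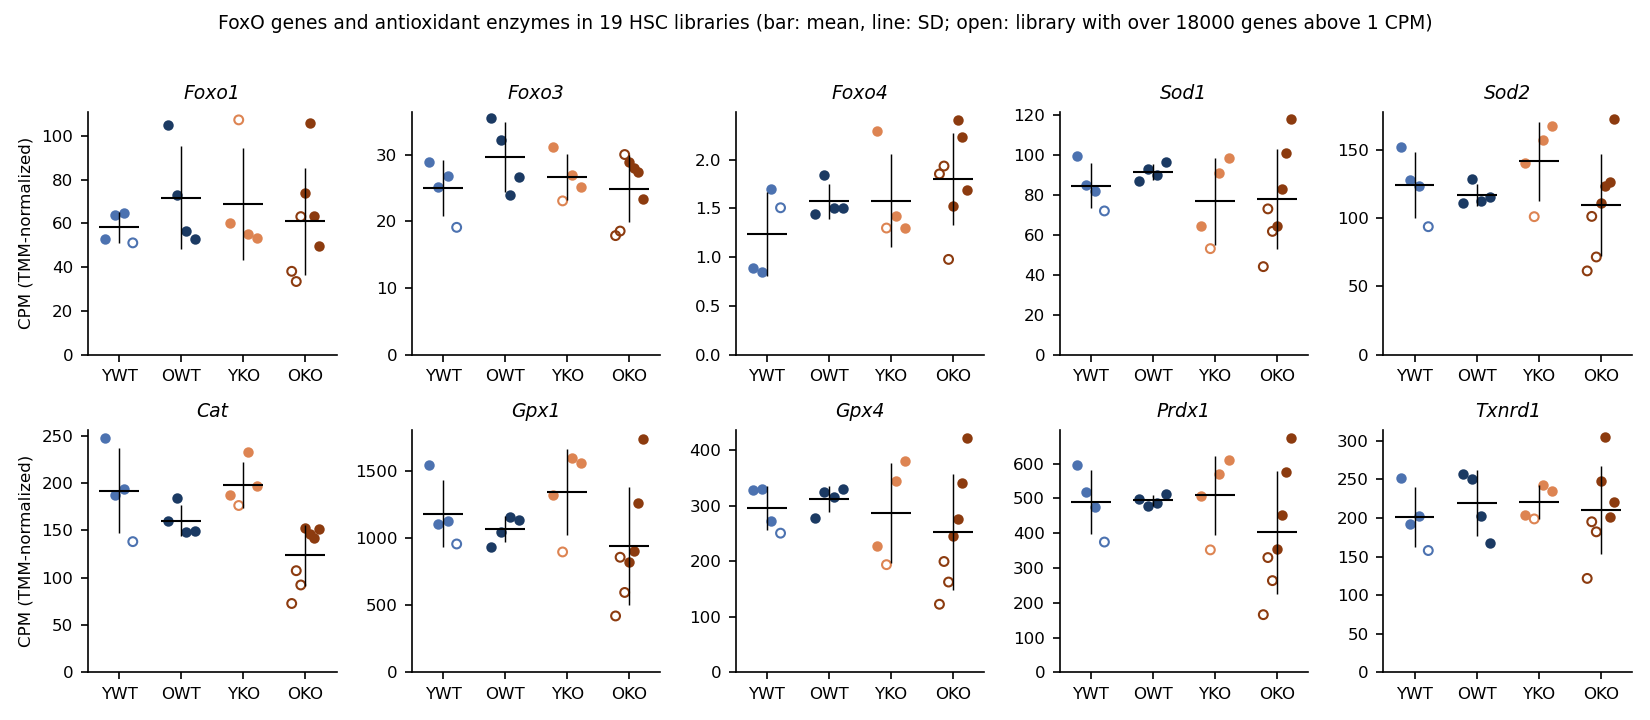
CPM (y axis, from 0) of each of the 10 genes in the 4 YWT, 4 OWT, 4 YKO and 7 OKO libraries, 1 point per library, with the group mean as a bar and the SD as a line, and with the 5 libraries with over 18000 genes above 1 CPM as open circles. Cat is the gene whose OKO points, at most 153.1 CPM, all lie below its YKO points, at least 176.4 CPM, and the open circles are low in most enzyme panels.

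Foxo1 (ENSMUSG00000044167.6, chromosome 3, 52268336 to 52353221, plus strand) was at 52.8, 63.9, 64.8 and 51.1 CPM in YWT and at 104.9, 73.1, 56.4 and 53.0 CPM in OWT, where CPM is normalized by the TMM method of edgeR. The YKO libraries stood at 60.1, 107.4, 55.2 and 53.2 CPM, and in OKO it ran from 33.4 over a median of 63.1 to 105.8 CPM. OWT, YKO and OKO each held 1 library well above the rest (OWT1, YKO2 and OKO5), and the 4 groups overlapped. The log2 fold change of Foxo1 was 0.31 in wild-type aging (95% confidence interval -0.34 to 0.95), 0.25 with the knockout in young HSCs (-0.40 to 0.89), -0.18 in knockout aging (-0.75 to 0.40) and -0.23 with the knockout in old HSCs (-0.80 to 0.34). None passed the quasi-likelihood test of edgeR, whose p-values, adjusted by Benjamini-Hochberg, ran from 0.733 to 1. Without YKO2 the difference of Foxo1 in OKO vs YKO was 0.15, against -0.18 with it, so that 1 library set its sign. Foxo1 shares 674 exon bases with Gm20402, an antisense gene on the other strand whose counts equalled 11.1% to 25.6% of those of Foxo1, and whether the counting used strand is not given in the sources used here.

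Foxo3 (ENSMUSG00000048756.11, chromosome 10, 42181841 to 42276755, minus strand), the FoxO gene most often tied to HSC quiescence, was at 28.9, 25.1, 26.9 and 19.1 CPM in YWT and at 35.6, 32.3, 23.9 and 26.7 CPM in OWT. YKO gave 31.2, 23.1, 27.0 and 25.2 CPM, and OKO lay between 17.9 and 30.0 CPM with a median of 27.5. All 4 groups overlapped, and the 3 lowest libraries were OKO1, OKO2 and YWT4. Foxo3 differed on the log2 scale by 0.24 in wild-type aging (95% confidence interval -0.20 to 0.69), by 0.09 with the knockout in young HSCs (-0.35 to 0.53), by -0.10 in knockout aging (-0.49 to 0.29) and by -0.25 with the knockout in old HSCs (-0.64 to 0.14), with edgeR adjusted p from 0.628 to 1. These intervals leave out a 2-fold change of Foxo3 in either direction in each of the 4 comparisons.

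Foxo4 (ENSMUSG00000042903.8, chromosome X, 101254528 to 101260873, plus strand) was the scarcest, at 35 to 151 reads per library. It was at 0.891, 0.844, 1.70 and 1.51 CPM in YWT, at 1.44, 1.84, 1.51 and 1.51 CPM in OWT and at 2.29, 1.30, 1.42 and 1.30 CPM in YKO. In OKO it lay between 0.976 and 2.41 CPM, with a median of 1.85. The groups overlapped and the spread within them was wide, with an SD of 35.1% of the mean in YWT. Its log2 fold changes in the 4 comparisons were 0.35, 0.34, 0.20 and 0.19, with standard errors of 0.33 to 0.37 and edgeR adjusted p from 0.779 to 1. A 2-fold higher Foxo4 level lies within the intervals of OWT vs YWT and YKO vs YWT, whose upper bounds were 1.11 and 1.11, and could not be told from no change at this depth.

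Sod1 (ENSMUSG00000022982.10, chromosome 16, 90220754 to 90226329, plus strand) was at 99.2, 85.1, 82.0 and 71.9 CPM in YWT and at 87.1, 92.8, 89.7 and 96.6 CPM in OWT. In YKO the values were 64.2, 53.1, 90.9 and 98.6 CPM, and OKO lay between 44.0 and 117.9 CPM with a median of 73.0. The OWT libraries were close together, with an SD of 4.48% of the mean, while OKO spread over 32.2%. In the 4 comparisons the log2 fold change of Sod1 was 0.11, -0.14, 0.02 and -0.23, with edgeR adjusted p from 0.685 to 1. Their confidence intervals ran from -0.70 to 0.64.

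Sod2 (ENSMUSG00000006818.5, chromosome 17, 13006846 to 13040063, plus strand) was at 152.5, 127.8, 123.4 and 93.8 CPM in YWT and at 111.3, 128.7, 113.0 and 115.4 CPM in OWT. In YKO it was at 140.5, 101.2, 157.8 and 167.5 CPM, and in OKO it lay between 61.4 and 172.6 CPM with a median of 111.4. The highest and the lowest Sod2 level of the series were both in OKO, in OKO7 and OKO1. For Sod2 the log2 fold changes were -0.09 in wild-type aging, 0.19 with the knockout in young HSCs, -0.37 in knockout aging (95% confidence interval -0.84 to 0.11) and -0.09 with the knockout in old HSCs, with edgeR adjusted p from 0.446 to 1.

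Cat (ENSMUSG00000027187.10, chromosome 2, 103453849 to 103485160, minus strand), which codes for catalase, the peroxisomal enzyme that splits hydrogen peroxide into water and oxygen, showed the largest difference of the 10 genes. It was at 247.8, 187.8, 193.5 and 138.2 CPM in YWT and at 160.3, 183.9, 148.1 and 149.1 CPM in OWT. The YKO libraries stood at 187.6, 176.4, 232.7 and 197.4 CPM, and in OKO it ran from 72.8 over a median of 142.2 to 153.1 CPM. All 7 OKO libraries lay below all 4 YKO libraries, and 5 of the 7 lay below each OWT library. The mean was 123.7 ± 32.4 CPM in OKO (SD, n = 7) and 198.5 ± 24.3 CPM in YKO (SD, n = 4), a log2 fold change of -0.68 (standard error 0.21, 95% confidence interval -1.11 to -0.25). Its edgeR adjusted p of 0.106 did not pass the threshold of 0.05 over the 33690 genes, at an unadjusted p of 0.00336. Of all tested genes, 1.48% had OKO wholly below YKO and 2.6% did not overlap in either direction. Cat differed by -0.37 on the log2 scale with the knockout in old HSCs (95% confidence interval -0.81 to 0.06, edgeR adjusted p = 0.592), by -0.26 in wild-type aging (-0.75 to 0.24) and by 0.05 with the knockout in young HSCs (-0.44 to 0.54).

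Gpx1 (ENSMUSG00000063856.7, chromosome 9, 108338903 to 108340343, plus strand) was at 1545, 1108, 1128 and 958 CPM in YWT and at 936, 1048, 1158 and 1134 CPM in OWT. YKO gave 1325, 898, 1600 and 1563 CPM, and OKO lay between 421 and 1744 CPM with a median of 859. OKO again held both the lowest and the highest library, OKO1 and OKO7, and 4 of its 7 libraries lay below each YKO library. Gpx1 had log2 fold changes of -0.15, 0.18, -0.51 and -0.18 in the 4 comparisons, and that of knockout aging had a 95% confidence interval of -1.12 to 0.10 (edgeR adjusted p = 0.405). Gpx4 (ENSMUSG00000075706.10, chromosome 10, 80047166 to 80056439, plus strand) was at 329, 331, 273 and 251 CPM in YWT, 278, 324, 316 and 331 CPM in OWT and 227, 194, 344 and 381 CPM in YKO. In OKO Gpx4 ran from 123 over a median of 246 to 422 CPM, so that all groups overlapped. Its log2 fold changes were 0.08, -0.05, -0.18 and -0.30, with standard errors of 0.27 to 0.31 and edgeR adjusted p from 0.668 to 1. The pseudogene Gpx4-ps2 aligns to Gpx4 over 762 bases at 99.7% identity and held counts equal to 6.10% to 12.3% of those of Gpx4, so its reads and those of Gpx4 may be divided unevenly.

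Prdx1 (ENSMUSG00000028691.12, chromosome 4, 116685544 to 116700822, plus strand) was at 596, 519, 474 and 375 CPM in YWT and at 498, 478, 488 and 514 CPM in OWT. In YKO the values were 507, 352, 569 and 611 CPM, and OKO lay between 166 and 672 CPM with a median of 356. OWT was the tightest group, with an SD of 3.07% of the mean, and OKO the widest, with 44.0%. Prdx1 had log2 fold changes of 0.01, 0.05, -0.34 (95% confidence interval -0.92 to 0.24) and -0.30 in the 4 comparisons, with edgeR adjusted p from 0.571 to 1. Txnrd1 (ENSMUSG00000020250.10, chromosome 10, 82833951 to 82897712, plus strand), whose product recharges thioredoxin, the electron donor of Prdx1, was at 252, 192, 203 and 158 CPM in YWT, at 257, 250, 202 and 167 CPM in OWT and at 204, 199, 243 and 235 CPM in YKO. In OKO Txnrd1 lay between 122 and 305 CPM with a median of 201, across the whole range of the other groups. For Txnrd1 the log2 fold changes were 0.13, 0.13, -0.07 and -0.06, with standard errors of 0.21 to 0.24 and edgeR adjusted p from 0.897 to 1. Near-identical copies of Prdx1 (Gm21399 and Gm7204) and of Sod1 (Gm8566) held counts equal to at most 1.67% and 3.16% of those of the respective gene.

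The call rule asked for a fold change over 1.5 beside an edgeR adjusted p under 0.05. By this rule 0 of the 10 genes were called in each of the 4 comparisons, where 0.00297% of all tested genes were called in wild-type aging, 0.0267% with the knockout in young HSCs, 1.29% in knockout aging and 0.0327% with the knockout in old HSCs. At an unadjusted p under 0.05 there was 1 of the 10, Cat in OKO vs YKO, while 5330 of the 33690 genes passed that mark there, and 1476, 1548 and 2741 in the other 3 comparisons. DESeq2, run beside edgeR, called 0, 0, 1 and 0 of the 10 in the same order, where the 1 was again Cat (-0.64, adjusted p = 0.00937) and 6.3% of all genes were called, against 0.401%, 0.404% and 0.217% in the other 3. Without OKO7, edgeR called Cat as well (-0.74, adjusted p = 0.0447), beside 5.47% of all genes. None of the 10 was called for a genotype by age interaction by either tool, where edgeR called 0% of all genes (1556 at an unadjusted p under 0.05) and DESeq2 0.0208%, and the lowest unadjusted p of the 10 was 0.196, for Cat. Outside knockout aging, the groups of each of the 10 genes overlapped, while 4.13%, 5.12% and 0.819% of all tested genes did not overlap in wild-type aging and with the knockout in young and in old HSCs.

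Of the 10 differences, 7, 8, 2 and 1 were positive and 3, 2, 8 and 9 negative in the 4 comparisons. The median log2 fold change of the 10 genes was 0.10, 0.11, -0.18 and -0.23 in that order, and the median of all tested genes was -0.05, -0.02, 0.23 and 0.12. In a fit of the 12363 genes with a mean of at least 5 CPM, the all-gene medians were -0.006, -0.013, 0.032 and 0.035. In that fit Foxo3 moved from -0.10 to 0.14 and Gpx1 from -0.51 to -0.32 in OKO vs YKO. The distance of the 10 genes from all genes thus depends on the floor. The comparisons share groups (YWT, YKO, OWT and OKO each enter 2 of them), so their values are not independent. Under upper-quartile normalization the median of all genes moved from 0.23 to 0.43 in OKO vs YKO, and the called genes from 201 higher and 233 lower to 710 higher and 368 lower. The medians of the 10 genes were then 0.05, 0.13, -0.08 and -0.03 in the 4 comparisons, so the negative medians were less than 0.1 from 0. Over all 4 comparisons the confidence intervals of the 10 genes stayed between -1.12 and 1.11.

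**Figure D2:**
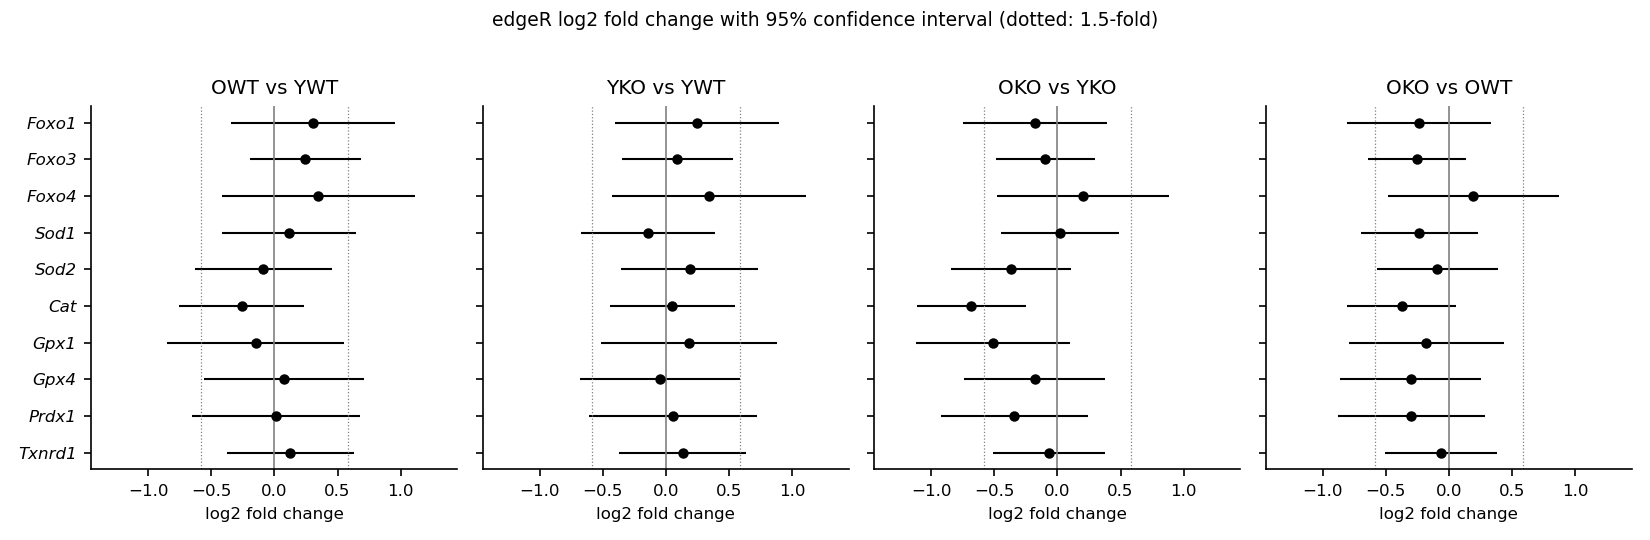
Log2 fold change (x axis) of the 10 genes in the 4 comparisons from the edgeR fit of all 19 libraries, with 95% confidence intervals as lines and 1.5-fold changes as dotted lines. Only the interval of Cat in OKO vs YKO, -1.11 to -0.25, leaves out 0, and it did not pass after adjustment.

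OKO held 3 libraries without the title prefix and 4 with it. OKO1 to OKO3 lay below OKO4 to OKO7 in 5 of the 10 genes (Sod2, Cat, Gpx4, Prdx1 and Txnrd1), as in 12.4% of all tested genes, and below every YKO library in 4 (Cat, Gpx1, Prdx1 and Txnrd1), as in 14.9% of all tested genes. With OKO1 to OKO3 alone against YKO, which share the absence of the prefix, 5 of the 10 genes fell: Cat by 1.06 on the log2 scale (standard error 0.20, edgeR adjusted p = 0.00432), Gpx1 by 1.05 (0.27, 0.0144), Prdx1 by 0.95 (0.24, 0.0146), Sod2 by 0.80 (0.21, 0.0184) and Gpx4 by 0.76 (0.24, 0.0339). In that fit 17.9% of all tested genes were called, so 5 of 10 is to be read against a wide change of the libraries. The 3 FoxO genes, Sod1 and Txnrd1 were not called there, with Foxo1 at -0.55 (edgeR adjusted p = 0.168), Sod1 at -0.30 (0.311) and Txnrd1 at -0.34 (0.235). A fit with the prefix as a covariate called the same 5 genes, with Cat at -1.13 (edgeR adjusted p = 0.00255), and 19.1% of all genes. Only OKO holds libraries with and without the prefix, so that fit sets the same OKO1 to OKO3 against YKO. Its calls are not separate support.

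OKO1 to OKO3 are also 3 of the 5 libraries with over 18000 genes above 1 CPM, so among the OKO libraries the prefix and this property cannot be told apart. Without those 5 libraries edgeR called 0 of the 10 genes in knockout aging, where it called 0.131% of all genes. That fit sets OKO4 to OKO7, all with the prefix, against YKO1, YKO3 and YKO4, all without it, so knockout aging and the batch cannot be told apart in it. Cat then stood at -0.48 (standard error 0.14, edgeR adjusted p = 0.136), Gpx1 at -0.34 (0.23, 0.560), Sod2 at -0.22 (0.16, 0.582), Prdx1 at -0.13 (0.19, 0.822) and Gpx4 at 0.01 (0.21, 0.988). Foxo1 changed sign to 0.38 (0.25, 0.518). OKO4 to OKO7 against OWT, which carry the prefix as well, gave -0.09 for Cat, 0.17 for Gpx1, 0.08 for Prdx1, 0.22 for Sod2 and 0.07 for Gpx4, with 0 of the 10 genes called and 0.0801% of all genes called.

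**Figure D3:**
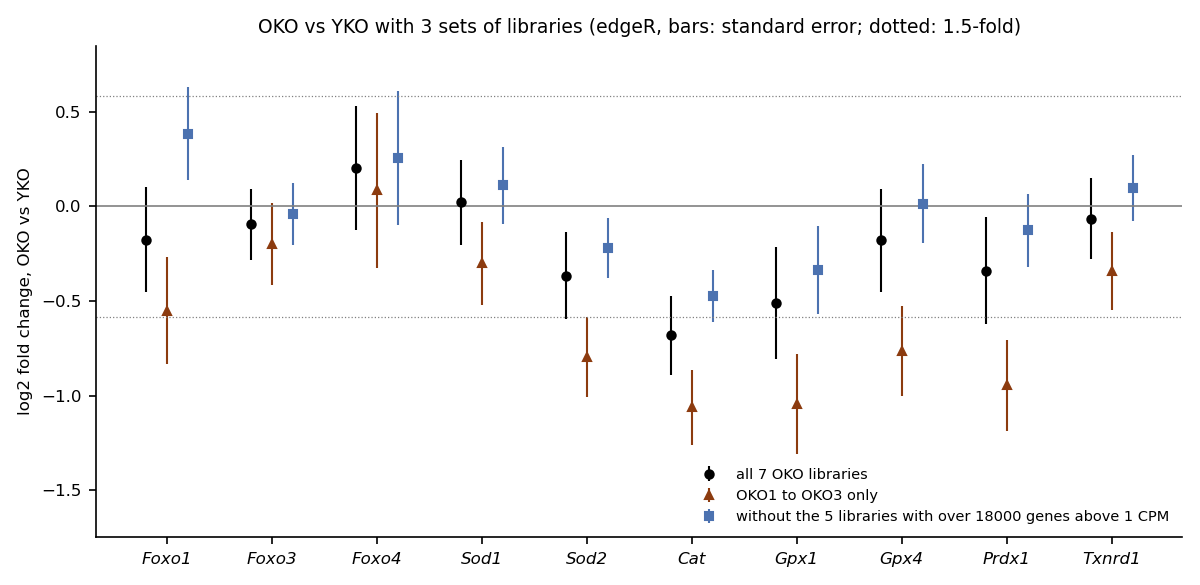
Log2 fold change in OKO vs YKO (y axis) of the 10 genes from edgeR fits of 3 sets of libraries, with standard errors as lines and 1.5-fold changes as dotted lines. With OKO1 to OKO3 alone (triangles) Cat is at -1.06 and Gpx4 at -0.76, and without the 5 libraries with over 18000 genes above 1 CPM (squares), where all OKO libraries carry the title prefix and no YKO library does, they are at -0.48 and 0.01.

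Outside OKO, too, the libraries with many detected genes were low for these genes. YWT4 held the lowest YWT value in 9 of the 10 genes, all but Foxo4, and YKO2 the lowest YKO value in 9, all but Foxo1. OKO1, with 27972 genes above 1 CPM the most of all, was the lowest OKO library in 8 of the 10, all but Foxo1 and Foxo4. OKO2 was the lowest in Foxo1 and OKO3 in Foxo4, so that the OKO minimum of all 10 genes lay in OKO1 to OKO3. Exceptions were YKO2, which had the highest Foxo1 level of the 19 libraries, YWT2, which had the lowest Foxo4 level in YWT, and OKO1, which stood at the OKO median of Foxo4. How many of all tested genes were lowest in the same libraries was not counted. These counts are therefore not shown to be particular to the 10 genes. The part that the number of detected genes had in the results was not tested beyond the fits without the 5 libraries.

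**Figure D4:**
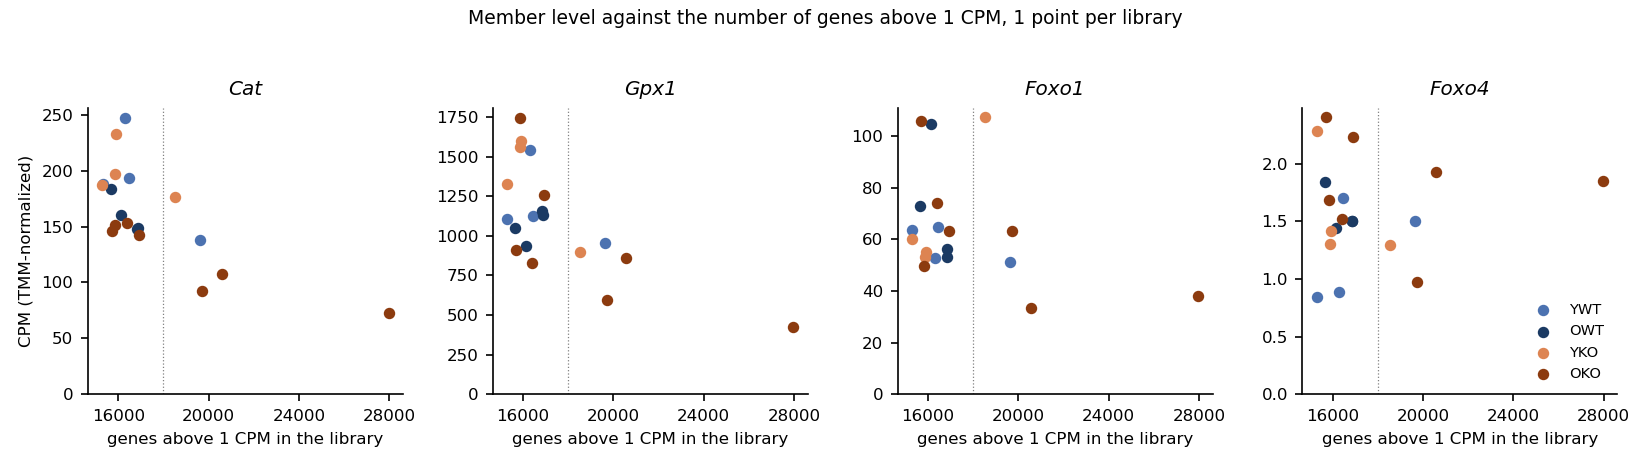
CPM of Cat, Gpx1, Foxo1 and Foxo4 (y axis, from 0) against the number of genes above 1 CPM in the library (x axis), 1 point per library, colored by group, with a dotted line at 18000 genes. Cat and Gpx1 are lowest at the right, at 72.8 and 421 CPM in OKO1, while Foxo4 in OKO1, at 1.85 CPM, lies within the range of the libraries at the left.

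Markers of other blood cells moved with OKO vs YKO as well. Of 13 erythroid markers 6 fell, among them Alas2, whose level fell by 4.42 on the log2 scale, and Hba-a1, which fell by 4.22 (edgeR adjusted p = 3.79e-07 and 4.07e-05). Their summed level was 2715 to 7384 CPM in YKO and 663 to 5106 CPM in OKO, against 1950 to 4185 CPM in YWT and 1837 to 3092 CPM in OWT. With the knockout in young HSCs Alas2 rose by 2.22 on the log2 scale (edgeR adjusted p = 0.0430), the 1 erythroid marker called. An unadjusted p of edgeR under 0.05 was reached there by 6 of the 13 erythroid and 8 of the 9 T cell markers. Of all 33690 genes, 1548 reached it. Of the T cell markers 0 were called, with sums of 161 and 106 CPM in YKO1 and YKO2 and 46.3 and 36.5 CPM in YKO3 and YKO4. Red cell precursors are rich in catalase, and the lineage- gate of the sort is meant to remove such cells. OKO1 and OKO3, 2 of the 3 libraries with the least Cat, had the lowest erythroid sums (663 and 690 CPM). The third, OKO2, had a sum of 2809 CPM at 107.5 CPM of Cat, and YKO2 had a sum of 2715 CPM at 176.4 CPM of Cat. OKO5, with the next lowest sum (1006 CPM), had 146.4 CPM of Cat, and OKO7, with the highest sum in OKO (5106 CPM), had 151.3 CPM. Car2 and Car1 weigh most in these sums, at medians of 1616 and 696 CPM over the 19 libraries. The medians of Hbb-bs and Alas2 were 40.9 and 3.94 CPM. Hba-a1 alone was at 6.20 CPM in OKO1, 38.3 in OKO2, 5.24 in OKO3, 12.45 in OKO5, 23.1 in OKO7 and 115.8 in YKO2. The order of libraries by these sums is thus not that by Hba-a1. Of 10 B cell markers 7 fell, with sums of 206 to 1608 CPM in YKO, 28.0 to 204 CPM in OKO, 232 to 695.5 CPM in YWT and 66.5 to 220.2 CPM in OWT. Of 9 T cell markers 3 fell, with sums of 36.5 to 161 CPM in YKO, 13.8 to 57.4 CPM in OKO, 22.9 to 38.4 CPM in YWT and 26.9 to 42.2 CPM in OWT. Of 14 granulocyte and monocyte markers, Prtn3 rose by 2.47 and Csf1r fell by 1.21 (edgeR adjusted p = 0.000604 and 0.0190). With the knockout in young HSCs Prtn3 stood at -1.86 (edgeR adjusted p = 0.0647) and Csf1r at 0.67, neither called. The sums were 469.5 to 617 CPM in YKO, 469.8 to 1163 in OKO, 651.9 to 835.9 in YWT and 1122 to 1582 in OWT. Of the 14, 8 had an unadjusted p under 0.05 in wild-type aging and 9 with the knockout in old HSCs. Of 8 plasma cell, 6 progenitor, 13 HSC and 8 megakaryocyte markers edgeR called none, with 0, 2, 4 and 0 at an unadjusted p under 0.05. The plasma cell markers spread widely within groups. Their sums were 1333 to 27070 CPM in YWT, 438.4 to 2936 in OWT, 759.6 to 13790 in YKO and 125.5 to 4740 in OKO. At this spread the absence of calls does not show equal levels. None of the markers of these blood cells was at 0 throughout a group. The part of these cells in the levels of the 10 genes was not tested.

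The genes around the 10 were taken as 5 lists, and edgeR called 0 of their genes outside knockout aging, with 11, 9 and 11 at an unadjusted p under 0.05 in the other 3 comparisons. DESeq2 called 1 there, Gpx3 in wild-type aging. In knockout aging edgeR called 1.29% and DESeq2 6.3% of all tested genes. Among 29 regulators of FoxO factors, such as AKT and PI3K subunits, SGK kinases and sirtuins, edgeR called 0 in knockout aging, with 4 at an unadjusted p under 0.05, and DESeq2 called 2, both higher. Their median log2 fold change was -0.17, beside 0.23 for all genes, a median that depends on the floor of counts as given above. The lowest p was that of Sgk1, a kinase that phosphorylates FoxO proteins, at 5.80 to 8.78 CPM in YKO and 8.72 to 38.2 CPM in OKO (1.19 on the log2 scale with a standard error of 0.34, edgeR adjusted p = 0.0800). Next was Pik3r1, the regulatory subunit of PI3K, at 87.4 to 124.7 CPM in YKO and 94.1 to 239 CPM in OKO (0.75, 0.24, 0.118).

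Of 31 FoxO target genes 29 had enough reads to be tested, and 2 were called in OKO vs YKO by edgeR, in opposite directions. An unadjusted p of edgeR under 0.05 was reached by 11 of the 29, and by 5330 of all 33690 genes. DESeq2 called 8 higher and 2 lower, where it called 6.3% of all genes. Tnfsf10, which codes for the death ligand TRAIL, was at 21.3 to 34.0 CPM in YKO and 58.2 to 131.5 CPM in OKO, without overlap. It rose by 1.72 on the log2 scale (standard error 0.27, edgeR adjusted p = 0.00200). Gadd45a, a paralog of Gadd45b that is induced by DNA damage, was at 17.2 to 42.2 CPM in YKO and 9.35 to 19.3 CPM in OKO, where 1 YKO library, YKO2, reached into the OKO range. It fell by 1.19 (0.25, 0.0196), a call that was lost without YKO1 (edgeR adjusted p = 0.136), without YKO3 (0.0842) and in a fit of the YKO and OKO libraries alone (0.0660). The median of the list was 0.29, beside 0.23 for all genes, with the same limit. In wild-type HSCs Klf6 and Sesn1 had the lowest p of the list (0.66 and 0.75, edgeR adjusted p = 0.701 and 0.920), and with the knockout in young HSCs Tnfsf10 stood at -0.87 (0.709) and Gadd45a at 0.68 (0.989), so that both genes had opposite signs in the comparisons that share YKO.

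Of 26 further superoxide, peroxidase and thioredoxin enzymes 1 was called in OKO vs YKO, beside 3 at an unadjusted p under 0.05. This was Gpx3, the secreted glutathione peroxidase, at 4.59 to 13.0 CPM in YKO and 12.0 to 53.5 CPM in OKO. Gpx3 rose by 2.25 on the log2 scale (standard error 0.43, edgeR adjusted p = 0.0112), while Gpx1 stood at -0.51. In wild-type HSCs Gpx3 was at 7.18 to 17.8 CPM in YWT and 23.3 to 65.2 CPM in OWT, without overlap, but the difference of 1.66 did not pass (edgeR adjusted p = 0.406). The mean of Gpx3 was thus larger in both old groups, but wild-type aging cannot be told apart from the batch. With the title prefix as a covariate Gpx3 stood at 0.77 in OWT vs YWT and at 1.685 in OKO vs YKO. Within OKO it was at 12.0, 18.9 and 35.3 CPM in OKO1 to OKO3 and at 45.0, 41.9, 53.5 and 22.7 CPM in OKO4 to OKO7. The genotype by age interaction of Gpx3 was 0.59 (95% confidence interval -0.64 to 1.82). Of 26 genes of glutathione synthesis and NRF2 signaling edgeR called 0 and DESeq2 called 2 higher and 2 lower. The unadjusted p of edgeR was under 0.05 for 6 of them, and the median of the list was -0.24. The lowest p was that of Nqo1, a quinone reductase and NRF2 target, at -1.10 (edgeR adjusted p = 0.119), and of Tkt, the transketolase of the pentose phosphate pathway, at -0.73 (0.175).

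Of 13 subunits and homologs of the NADPH oxidase, which makes superoxide, 1 was called. Ncf1, the cytosolic subunit p47phox, was at 11.8 to 64.6 CPM in YKO and 2.08 to 8.86 CPM in OKO, without overlap, and fell by 2.80 on the log2 scale (standard error 0.37, edgeR adjusted p = 0.000433). It was at 11.5 to 18.7 CPM in YWT, overlapping YKO, and at 7.31 to 11.3 CPM in OWT, overlapping OKO, and it is also abundant in granulocytes and B cells. Without the 5 libraries with many detected genes none of these 4 genes was called, at edgeR adjusted p of 0.0599 for Tnfsf10, 0.0574 for Gadd45a, 0.0549 for Gpx3 and 0.0586 for Ncf1, with log2 fold changes of 1.59, -1.15, 2.44 and -2.02. The same limit holds here, since all OKO libraries of that fit carry the prefix and no YKO library does.

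**Figure D5:**
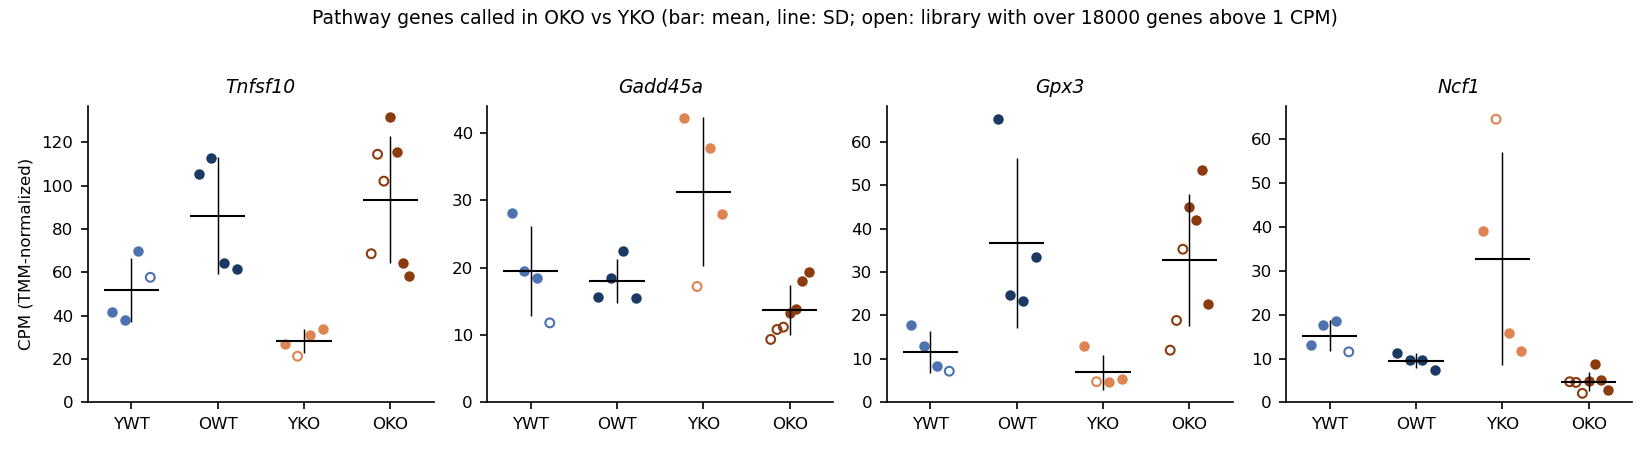
CPM (y axis, from 0) of the 4 listed genes called in OKO vs YKO, 1 point per library, with the group mean as a bar, the SD as a line and the 5 libraries with over 18000 genes above 1 CPM as open circles. Tnfsf10 and Ncf1 do not overlap between YKO and OKO, at 21.3 to 34.0 against 58.2 to 131.5 CPM and at 11.8 to 64.6 against 2.08 to 8.86 CPM, whereas Gadd45a and Gpx3 do.

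Across the 19 libraries the genes most like each of the 10 in log2(CPM + 1) were sought among 12315 genes with a mean of at least 5 CPM, as a description of libraries that share depth and composition. Foxo1 was most like Mylip (Pearson r = 0.92, and 0.87 over the 14 libraries without the 5 named above), Ralgds (0.89 and 0.87) and Cc2d1a (0.89 and 0.90). Foxo3 was most like Net1 (0.87 and 0.71), Jak1 (0.86 and 0.88) and Ap3b1 (0.86 and 0.83). For Foxo4 the closest were Paqr3 (0.65 and 0.68), Osm (0.60 and 0.58) and Gm26816 (0.59 and 0.63), all looser than for the other 9 genes. The closest gene of an enzyme was Ndufa7 for Sod1 (0.97 and 0.95), Naa10 for Sod2 (0.98 and 0.96), Mrpl36 for Gpx1 (0.99 and 0.98), Ndufa8 for Gpx4 (0.97 and 0.90) and Rplp0 for Prdx1 (0.99 and 0.94). Ctcf was closest to Cat (0.93 and 0.74), and Brap to Txnrd1 (0.96 and 0.91). Among the 10 themselves, Sod2, Gpx1, Gpx4 and Prdx1 were correlated at 0.88 to 0.95 with each other over the 19 libraries. Sod1 was at 0.94 with Gpx4, 0.89 with Prdx1, 0.81 with Gpx1 and 0.79 with Sod2. Cat was at 0.84 with Sod2, 0.82 with Gpx1, 0.81 with Prdx1 and 0.72 with Gpx4. Foxo1 and Foxo3 were correlated at 0.63, and Foxo4 at -0.24 to 0.06 with the other 9. These values are given for all 19 libraries only.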

How the data were processed

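RNA was purified from sorted HSCs, and libraries were made with the SMART-Seq v4 kit. The authors trimmed reads with Trim Galore 0.4.3, aligned them with STAR to mm10 (index of GENCODE M22), and counted reads per gene with featureCounts. The deposited values are these raw counts by gene symbol. Strand and the handling of reads with several positions are not given in the sources used here. WGBS samples were not used here.

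Counts of the 19 libraries were analysed in R 4.3.3. Genes were filtered with filterByExpr and normalized by TMM, and edgeR 4.0.16 was fitted by quasi-likelihood with a mean for each group, without covariates, with Benjamini-Hochberg adjustment over 33690 genes. Standard errors were taken from the F statistic. Exon lengths and positions came from the GENCODE M21 annotation (mm10), and near-identical genes are those with at least 95% identity over 400 bases.

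The 10 genes and all lists were chosen with earlier results of these data known. Named were the 10 genes, Gadd45b, up to 4 called genes with the lowest p per list and comparison, otherwise the 2 with the lowest p, and the genes most like each of the 10 (3 per FoxO gene, 1 per enzyme). Of the genes so chosen in lists without calls, the text names a part.

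Alternatives were DESeq2 1.42.0, upper-quartile normalization, all genes unfiltered, a floor of 5 on the mean CPM, calls by adjusted p without the fold, fits of the compared groups, a term for the title prefix, OKO libraries of 1 prefix, a term for listed sex, blocking on replicate number, leaving out the 5 libraries with over 18000 genes above 1 CPM, and leaving out each library. Sex read from Y-linked genes was added as a covariate after seeing the data. Listed sex went against these genes in 3 libraries. On data simulated for OKO vs YKO (31923 genes), edgeR recovered 25 of 100 2-fold and 93 of 100 4-fold changes. Deviations of libraries with the same replicate number correlated at -0.45 to 0.28, so the numbers do not pair libraries, and no 2 replicates were alike within sampling noise (smallest chi-square per gene 30.8).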

Additional observations from a re-analysis of the deposited data

Results flagged for a closer look

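Of the 40 sets of values tested (10 genes in 4 groups), 3 held a library that stood apart by Dixon's criterion, where chance flags about 1 in 20, or 2 of 40. Foxo1 was at 107.4 CPM in YKO2, with the other 3 YKO libraries at 53.2 to 60.1 CPM. Foxo4 was at 2.29 CPM in YKO1, with the others at 1.30 to 1.42 CPM, and at 1.84 CPM in OWT2, with the others at 1.44 to 1.51 CPM. All 3 were FoxO genes. YKO2 is 1 of the 5 libraries with over 18000 genes above 1 CPM. YKO1 has the fewest counted reads of the 19, and its Foxo4 level rests on 43 reads.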

How the results depend on the processing

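Of 1495 values of the 10 genes recomputed under 13 settings and without each of the 19 libraries, 1481 kept their call, 12 were newly called, all in OKO vs YKO, and 2 turned direction at an unadjusted p under 0.05. Signs of uncalled differences changed in 35 of the 50 results. In OKO vs YKO, where 0 of the 10 genes were called, DESeq2 called 1 (Cat at -0.64, adjusted p = 0.00937, 6.3% of all genes), OKO1 to OKO3 alone 5 and the prefix covariate 5. The prefix covariate also sets OKO1 to OKO3 against YKO, so its calls are not separate from those of OKO1 to OKO3 alone. Without 1 library in turn the count was 0 to 1, where the 1 was Cat without OKO7 (-0.74, edgeR adjusted p = 0.0447). The log2 fold change of Cat lay between -1.13 and -0.48 over all settings, with adjusted p from 0.00255 to 0.300. With the prefix covariate, which only OKO informs, 6 of the 7 positive differences of the 10 genes in OWT vs YWT turned negative, from -1.01 for Prdx1 (edgeR adjusted p = 0.210) and -0.91 for Gpx4 (0.217) over -0.50 for Sod1, -0.43 for Txnrd1 and -0.40 for Foxo1 to -0.039 for Foxo3. In OKO vs OWT 6 turned positive (0.027 to 0.19), in OKO vs YKO 1 turned negative, at -0.36, and Srxn1 turned in OWT vs YWT to -0.041. These shifts follow from the design, since the prefix term is the gap between OKO4 to OKO7 and OKO1 to OKO3. That fit sets OKO4 to OKO7 against OWT, and it moves OWT vs YWT by this gap. What lies behind the gap was not tested. The replicate block called 0 of the 10 genes in each comparison (Cat in OKO vs YKO at -0.91, edgeR adjusted p = 0.0516), and replicate numbers did not pair the libraries. Foxo4 drops out at a mean CPM of at least 5. In data simulated for OKO vs YKO, with changes placed in genes of a mean above 5 CPM, 2-fold changes were seldom recovered. Recovery in the other comparisons, with 4 libraries in most groups, was not simulated. Foxo4, with under 152 reads per library and a mean of 1.59 CPM, lay below that level.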
